A study of Homo sapiens with 6 samples.

Results

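Genes of human chromosome 21 were described in LNCaP, an established androgen-sensitive prostate cancer cell line, with and without depletion of the retinoblastoma protein RB. The members are the rows of the deposited count table whose transcript ID GENCODE places on chromosome 21 and whose summed count over the 6 libraries was 60 or more. Genes with symbols beginning COL, ITG, MRP, ATP5 or NDUF were left out, as were TMPRSS2, NRIP1, MX1, MX2, CHAF1B, MIS18A, LSS and PFKL. This gave 109 members out of 276 chromosome 21 IDs and 22279 IDs in all. Of the 276 IDs, 153 were under the count of 60 and 95 of these were at 0, and 14 above it were left out by symbol. Of the members, 97 are protein coding and 12 are of other types, mostly antisense and long intergenic RNAs. The 3 members closest above the threshold were LINC00649, LINC01697 and BACE2, with 65, 66 and 68 counts, and the 3 genes closest below it were TCP10L, UMODL1 and TSPEAR-AS1, with 44, 40 and 37 counts.

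The 6 libraries form 2 groups of 3. The shRB cells carry a hairpin against RB and the shCON cells a control hairpin, and both groups spent 72 h in CDT, a hormone-deficient condition that the labels list as a cell cycle arrest treatment. Each group has 1 hairpin label, so RB depletion and the particular hairpin or cell population cannot be told apart. The labels do not say whether replicates were separate cultures, so errors and p-values describe only how far these libraries differ, and that difference may be technical. Total counts were 6115310 to 20091488 per library in shCON and 9780579 to 10898768 in shRB, and the members took 0.877% to 0.902% of the counts in shCON and 0.663% to 0.700% in shRB. RB1 mRNA (ENST00000267163) was 56.5, 52.7 and 54.7 CPM in shCON 1 to 3 and 5.82, 3.82 and 5.41 CPM in shRB 1 to 3, where CPM is counts per TMM-scaled library size, a level relative to the other genes of the library. Summed markers of the LNCaP line and luminal prostate cells (8 genes) were 4808 to 5072 CPM in shCON and 4482 to 4810 CPM in shRB. Basal markers (3 genes) summed to at most 0.638 CPM and both endothelial markers were at 0 in every library. The fibroblast markers (3 genes, 1 at 0) summed to 16.4 to 19.4 CPM in shCON and 11.7 to 15.3 CPM in shRB, and the leukocyte markers (3 genes, 2 at 0) to 4.91 to 6.87 CPM over all libraries. Nearly all of the fibroblast sum was COL1A1, with COL1A2 at 0 and DCN at most 0.163 CPM. The leukocyte sum was CD68 alone, with PTPRC and CD3E at 0. In bulk RNA, fewer cells of a type and less RNA per cell cannot be told apart.

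Chromosome 21 is the smallest human autosome and the one present in an extra copy in Down syndrome. Its genes belong to no single pathway. They include a cluster of interferon and interleukin receptor subunits, the amyloid precursor gene APP, the antioxidant enzyme SOD1, the kinase DYRK1A, the splicing factors U2AF1 and SON, and several factors of ribosome assembly. RB restrains E2F transcription factors, which drive genes of cell cycle entry, so members are shown here both for their common level and for departures from it.

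Promoter sequences are shown for 3 members that the results below turn on: PWP2, the member farthest above the common level, CBR1, which lay below it, and IFNGR2, the only one of 75 members with a promoter sequence that held an E2F-type motif. RefSeq (GRCh38.p14) gave a promoter of 300 bases, 250 before and 50 after the start, for 75 of the 109 members. In 62 of the 75 the last 30 bases were found in a transcript of the gene, and all 75 were searched. The motifs searched on both strands were TTTGGCGC, TTTCGCGC and TTTCCCGC, and a promoter was counted once however many matches, overlapping ones included, it held. A match was found in 1 of 75 members (1.33%) and in 961 of 35116 promoters of the whole table (2.74%). These sets are unlike, since members had 1 promoter each and the whole table was not limited to 1 per gene or to tested genes. Among members with a promoter, 1 of 14 above the common level, 0 of 10 below it and 0 of 51 on it had a match. Only the 250 bases before the start are printed, 5′ to 3′ on the plus strand, with the motif in capitals (GCGGGAAA, the reverse complement of TTTCCCGC, beginning 102 bases before the start of IFNGR2). The regions are chr21:44107149-44107398 (PWP2), chr21:36069774-36070023 (CBR1) and chr21:33403163-33403412 (IFNGR2) in GRCh38.p14.
PWP2: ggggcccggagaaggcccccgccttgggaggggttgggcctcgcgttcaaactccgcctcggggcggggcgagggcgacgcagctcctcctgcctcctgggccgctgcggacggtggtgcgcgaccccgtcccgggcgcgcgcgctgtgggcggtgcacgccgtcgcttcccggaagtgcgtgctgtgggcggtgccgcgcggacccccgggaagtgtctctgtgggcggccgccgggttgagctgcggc
CBR1: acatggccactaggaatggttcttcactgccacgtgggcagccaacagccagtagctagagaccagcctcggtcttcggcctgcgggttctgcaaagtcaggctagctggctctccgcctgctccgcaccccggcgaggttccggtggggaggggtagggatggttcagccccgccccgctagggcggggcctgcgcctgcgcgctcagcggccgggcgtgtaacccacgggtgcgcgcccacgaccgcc
IFNGR2: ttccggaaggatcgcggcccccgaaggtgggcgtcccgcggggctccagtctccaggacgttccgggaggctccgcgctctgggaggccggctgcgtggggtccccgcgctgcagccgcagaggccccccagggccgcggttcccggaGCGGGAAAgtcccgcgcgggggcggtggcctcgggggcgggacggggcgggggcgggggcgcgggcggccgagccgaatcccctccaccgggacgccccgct

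The median gene of chromosome 21 was lower in shRB, and this median is called the common shift below. Single members ran from −1.61 to 0.20. The median log2 fold change of the 109 members, shRB over shCON, was −0.38, which is 76.9% of the control level, against −0.01 over the 11712 genes tested. Of the members, 103 of 109 (94.5%) had a log2 fold change below 0, compared with 51.0% of all genes tested. The chromosome was chosen by this same shift in the log2 fold change of shRB over shCON, so these values, and the calls and counts of members that follow, are a description from which nothing is read. All 109 members passed the low-count filter of the fit. By edgeR's quasi-likelihood test, 68 members (62.4%) were lower, 0 were higher and 41 did not pass at a Benjamini-Hochberg adjusted p under 0.05, beside 12.5% lower and 12.8% higher among all genes tested. At an unadjusted p under 0.05 the number of members higher was also 0, and DESeq2 and limma-voom called 0 higher. Without shCON 3 the test called 45 members lower. In 82 members (75.2%) every shRB library lay below every shCON library, beside 20.2% of all genes tested.

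The shift had nearly the same size in each shRB library. Relative to the mean of each gene over the shCON libraries, on a log2(CPM + 0.25) scale, the median member stood at 0.01, −0.005 and −0.01 in shCON 1 to 3 and at −0.37, −0.37 and −0.38 in shRB 1 to 3. The groups did not overlap, and the pooled SD between replicates of a group was 0.0073. In shRB 1, 2 and 3, 99, 104 and 101 of the 109 members were below their shCON mean. The interquartile range of the members was wider in shRB 2, from −0.69 to −0.18, than in shRB 1 (−0.53 to −0.22) and shRB 3 (−0.56 to −0.20).

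**Figure D1:**
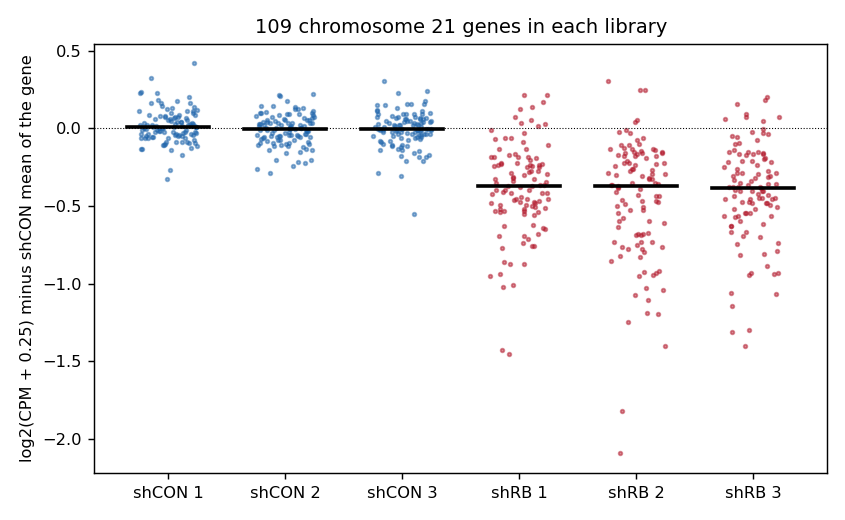
Each point is 1 of 109 chromosome 21 genes in 1 library, plotted as log2(CPM + 0.25) minus the mean of that gene over the 3 shCON libraries, and black bars are medians over the genes. The medians of the 3 shRB libraries lie between −0.38 and −0.37 and those of the 3 shCON libraries between −0.01 and 0.01.

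No other chromosome had a median as low. Over all its tested genes chromosome 21 had a median of −0.38 (123 genes), and the medians of the 22 other chromosomes ran from −0.07 on chromosome 2 to 0.15 on chromosome 3. The share of genes called lower was 63.4% on chromosome 21 and 6.03% to 18.3% on the others. The 14 chromosome 21 genes left out by symbol had a median of −0.38 as well.

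**Figure D2:**
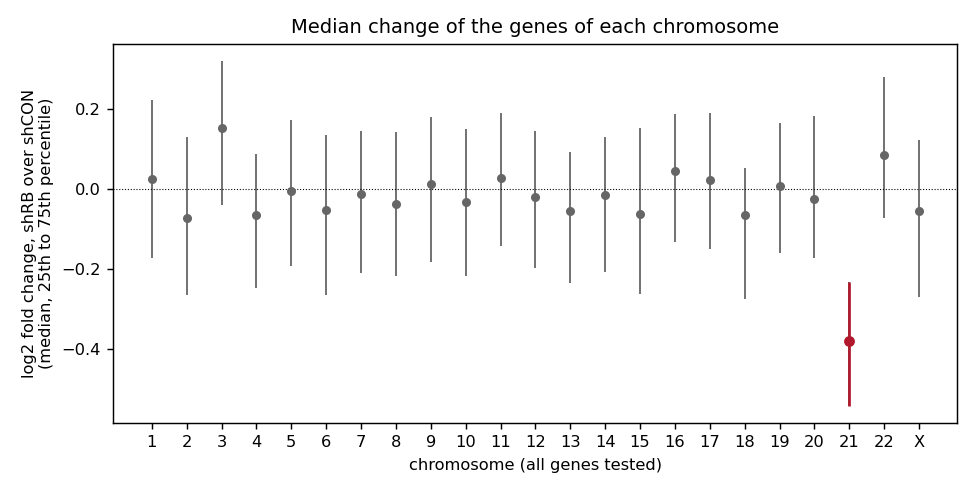
Median log2 fold change (shRB over shCON) of all tested genes of each chromosome, with lines from the 25th to the 75th percentile over genes. Chromosome 21, in red, has a median of −0.38, and the 22 others, in grey, lie between −0.07 and 0.15.

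Members from every part of the gene order had a median below 0, which describes a chromosome chosen by this shift. With the members in gene order and divided into 7 blocks of 15 or 16 genes, block medians were −0.42, −0.43, −0.40, −0.34, −0.42, −0.30 and −0.38. Each block held 9 to 11 genes called lower, beside 62.4% of all members and 12.5% of all genes tested. Nothing is read from these calls. Protein-coding members (97 genes) had a median of −0.38 and the 12 others one of −0.42. The members with the most counts, the 36 of highest mean CPM, had a median of −0.31, compared with −0.43 in the 37 of lowest mean CPM and −0.43 in the 36 between them. By transcript length the medians of the shortest, middle and longest groups were −0.37, −0.35 and −0.42.

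The members' order by GC content of their transcript differed between libraries and was widest in shRB 2. The 37 members of lowest GC content (33.5% to 45.8%) had a median log2 fold change of −0.47, the middle 36 one of −0.39 and the 36 of highest GC content (53.2% to 66.6%) one of −0.31. In shRB 2 the 3 groups stood at −0.67, −0.39 and −0.17 relative to their shCON means. In shRB 1 they stood at −0.37, −0.33 and −0.41, and in shRB 3 at −0.38, −0.38 and −0.39. Among the controls they stood at −0.08, 0.0045 and 0.03 in shCON 2, the same order over a smaller range, and at 0.07, 0.01 and −0.04 in shCON 1 and 0.02, −0.02 and −0.01 in shCON 3. The part of GC content in the values of single genes was not tested. Without shRB 2 the common shift was −0.39.

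**Figure D3:**
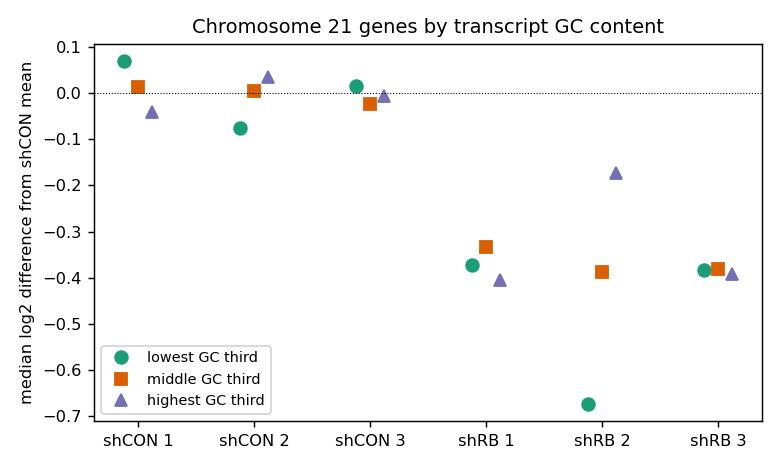
Median log2 difference from the shCON mean for members of low (circles), middle (squares) and high (triangles) transcript GC content in each of the 6 libraries. The 3 groups lie within −0.41 to −0.33 in shRB 1 and shRB 3 and spread from −0.67 to −0.17 in shRB 2.

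A member was taken as off the common shift where the 95% interval of its own log2 fold change left out −0.38. This held for 35 of 109 members (32.1%), of which 16 (14.7%) lay above and 19 (17.4%) below, and 74 did not leave it. Among 11528 tested genes of the other chromosomes, 35.5% left out the median of their own chromosome, 18.0% above it and 17.5% below it. The share of chromosome 21 genes off their median was therefore near the share elsewhere. The interquartile range of the log2 fold change was 0.30 over the members and 0.32 to 0.41 on the 22 other chromosomes. Without shRB 2 the number above was 25, and with a 99% interval it was 9.

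**Figure D4:**
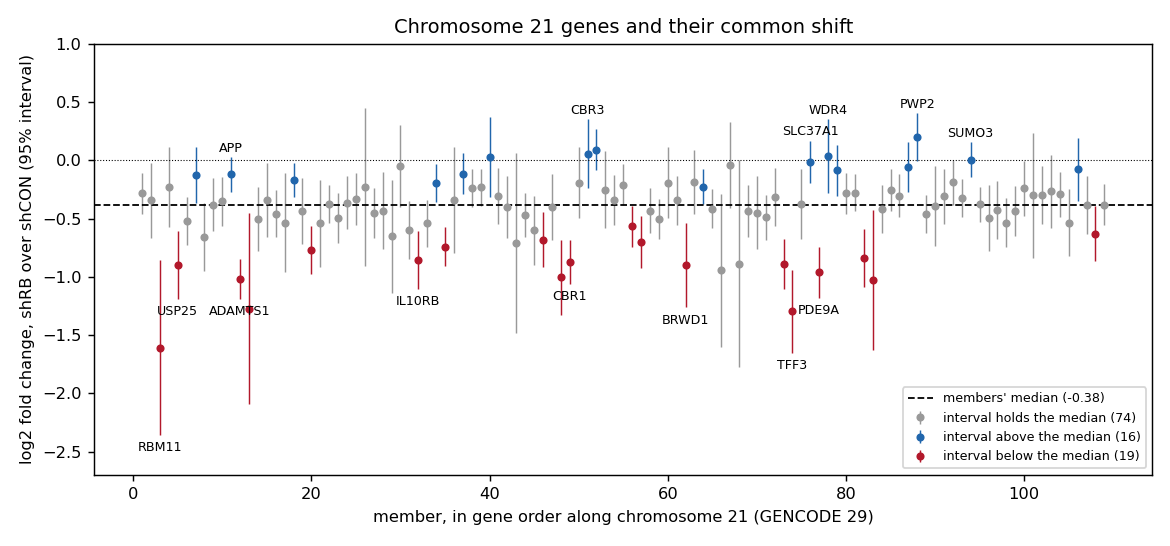
Log2 fold change (shRB over shCON) of each of the 109 members with its 95% interval, in gene order along chromosome 21, with the dashed line at the median of −0.38. Blue marks the 16 members above the median, red the 19 below it and grey the 74 whose interval holds it.

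The naming rule asks for at least 5 CPM and groups apart after centring, and leaves out symbols with a hyphen or beginning AP0, LINC or CH507. The 6 members it took above the shift were near their control level. PWP2 (ENST00000291576), a factor of small ribosomal subunit assembly, had 41.9, 46.7 and 43.7 CPM in shCON and 51.2, 54.5 and 46.0 CPM in shRB. The groups overlapped by 1 library in each, and the log2 fold change was 0.20 ± 0.10 (SE), 0.58 above the common shift. DOP1B (ENST00000399151), a homolog of the yeast trafficking gene DOP1, had 74.1, 75.6 and 71.3 CPM in shCON and 80.2, 72.2 and 83.5 CPM in shRB, a log2 fold change of 0.09 ± 0.08. In DOP1B the library shRB 2 lay within the control range and the other two lay above it. WDR4 (ENST00000398208), a subunit of a tRNA methyltransferase, had 9.96, 10.4 and 12.1 CPM in shCON and 9.55, 12.8 and 10.4 CPM in shRB. SUMO3 (ENST00000332859), a small ubiquitin-like modifier, had 208, 203 and 202 CPM in shCON and 209, 211 and 197 CPM in shRB. In WDR4 and SUMO3 the libraries of the groups were interleaved, with log2 fold changes of 0.03 ± 0.15 and 0.01 ± 0.07. SLC37A1 (ENST00000352133), a sugar-phosphate exchanger of the endoplasmic reticulum, had 56.3, 55.4 and 60.2 CPM in shCON and 54.5, 59.6 and 56.2 CPM in shRB (log2 fold change −0.01 ± 0.08). The 95% interval for SLC37A1 ran from −0.19 to 0.17, so that the common shift lay outside it and 0 inside.

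The 6 members that the naming rule took below the shift had 40.4% to 53.8% of their control level. TFF3 (ENST00000518498), a secreted trefoil peptide of mucous epithelia, had 8.39, 9.13 and 9.47 CPM in shCON and 3.18, 4.24 and 3.48 CPM in shRB. Its log2 fold change was −1.30 ± 0.17 (SE), 0.92 below the common shift. ADAMTS1 (ENST00000284984), a secreted metalloproteinase that cleaves proteoglycans, had 403, 373 and 343 CPM in shCON and 183, 176 and 194 CPM in shRB. The highest shRB library of ADAMTS1 lay far below the lowest shCON library, with a log2 fold change of −1.02 ± 0.08. PDE9A (ENST00000291539), a phosphodiesterase that degrades cyclic GMP, had 41.2, 43.4 and 36.7 CPM in shCON and 20.7, 20.99 and 20.9 CPM in shRB (−0.96 ± 0.10). ABCG1 (ENST00000361802), a cholesterol exporter, had 49.1, 53.9 and 55.3 CPM in shCON and 26.1, 27.8 and 31.3 CPM in shRB (−0.89 ± 0.10). In all 4 genes the groups were apart, which follows from the naming rule, so nothing is read from it.

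BRWD1 (ENST00000333229), a bromodomain protein, and USP25 (ENST00000400183), a deubiquitinase, were the other two that the naming rule took below the shift. BRWD1 had 30.9, 23.9 and 28.4 CPM in shCON and 17.1, 10.3 and 17.3 CPM in shRB, a log2 fold change of −0.90 ± 0.17. USP25 had 32.2, 24.7 and 33.0 CPM in shCON and 17.3, 13.7 and 17.1 CPM in shRB, a log2 fold change of −0.90 ± 0.14. In both genes shCON 2 and shRB 2 were the lowest of their groups, and both are among the members of lowest GC content. Among those of highest GC content that the naming rule took, shRB 2 was the highest shRB library in PWP2, CBR3, WDR4, SLC37A1 and TFF3. In ABCG1, also of highest GC content, shRB 2 lay between the others. The part of GC content in these values was not tested. AP000688.1, a transcript on the strand opposite CBR1 whose kind of symbol the naming rule leaves out, had 49.5% of its control level, lower than 4 of the 6. RBM11 (ENST00000400577), an RNA-binding splicing regulator chosen after its values were seen, had the lowest log2 fold change of all members, −1.61 ± 0.35, at only 1.96, 2.01 and 2.61 CPM in shCON and 0.637, 0.318 and 1.06 CPM in shRB.

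**Figure D5:**
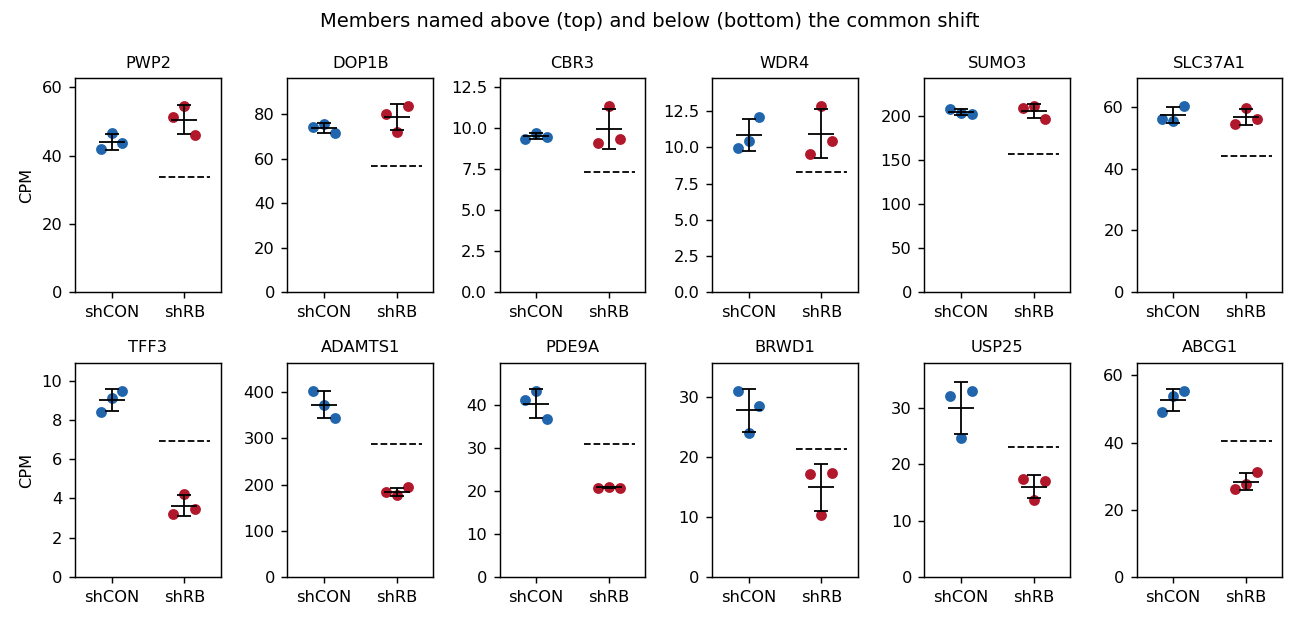
CPM of the 6 members that the naming rule took above (top) and the 6 it took below (bottom) the common shift, with points for single libraries and black bars for mean ± SD (n = 3). The dashed line marks the shCON mean lowered by the common shift of −0.38 on the log2 scale. The shRB means of the top genes lie above it and those of the bottom genes below it, as the naming rule requires.

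Carbonyl reductases, which reduce carbonyl groups of drugs and lipids, lay on opposite sides of the shift. CBR1 (ENST00000530908, chosen after its values were seen) had 67.8, 64.9 and 70.5 CPM in shCON and 39.9, 35.5 and 35.4 CPM in shRB, a log2 fold change of −0.87 ± 0.09. CBR3 (ENST00000290354), a close paralog nearby on the chromosome, had 9.37, 9.74 and 9.47 CPM in shCON and 9.10, 11.3 and 9.36 CPM in shRB, a log2 fold change of 0.06 ± 0.14. The groups were apart in CBR1 and interleaved in CBR3. The exons of CBR1 overlap those of AP000688.1 and the exons of CBR3 those of CBR3-AS1, both on the opposite strand, and the use of strand in counting is not given, so these counts are uncertain.

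Among cytokine receptors and immune ligands (5 tested), 3 were called lower, 0 higher and 2 did not pass, and the median log2 fold change was −0.54. Calls in this and the following lists stand beside 62.4% lower among all members and 12.5% among all genes tested. Nothing is read from them. IFNAR1 (ENST00000270139), a chain of the type I interferon receptor, had 105, 100.2 and 104 CPM in shCON and 71.1, 61.2 and 80.0 CPM in shRB (−0.54 ± 0.09, called lower). IFNGR2 (ENST00000290219), a chain of the interferon gamma receptor whose promoter is printed above, had 92.3, 89.0 and 88.3 CPM in shCON and 74.1, 81.6 and 79.8 CPM in shRB (−0.20 ± 0.08, not passed). The groups did not overlap in either gene. IL10RB (ENST00000290200), the shared chain of interleukin 10 family receptors and chosen after its values were seen, had 23.6, 21.8 and 25.5 CPM in shCON and 12.7, 14.1 and 12.3 CPM in shRB. Its log2 fold change of −0.85 ± 0.12 lay below the common shift, IFNGR2 lay above it and IFNAR1 on it. The exons of IFNGR2 overlap those of TMEM50B on the opposite strand.

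Of 13 transcription and chromatin factors, 8 were called lower, 0 higher and 5 did not pass (median −0.34). Of the 8, only PRMT2 and BRWD1 were called lower in every other fit and left-out library tried. The calls of GABPA, BACH1, SIM2, SETD4, PRDM15 and HMGN1 were each lost in some of them. HMGN1 (ENST00000380749), a nucleosome-binding protein, had 204, 205 and 211 CPM in shCON and 174, 183 and 174 CPM in shRB. PRMT2 (ENST00000355680), an arginine methyltransferase, had 66.0, 70.7 and 66.6 CPM in shCON and 52.1, 54.3 and 49.9 CPM in shRB. The groups were apart in both, with log2 fold changes of −0.22 ± 0.07 for HMGN1 and −0.38 ± 0.08 for PRMT2, both called lower. The call of HMGN1 was lost when shCON 1, shCON 2, shCON 3, shRB 1 or shRB 3 was left out. HMGN1 lay above the common shift in the fit of all 6 libraries, but its interval held the shift in DESeq2, without a low-count filter, and when shCON 1, shCON 2, shCON 3, shRB 1 or shRB 3 was left out.

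Of 12 genes of RNA processing and ribosome making, 8 were called lower, 0 higher and 4 did not pass (median −0.35). U2AF1 (ENST00000398137), which recognises the 3′ splice site, had 85.3, 87.3 and 88.5 CPM in shCON and 73.9, 72.4 and 69.0 CPM in shRB (−0.28 ± 0.08). SON (ENST00000356577), a splicing cofactor of nuclear speckles, had 242, 243 and 234 CPM in shCON and 210.4, 185 and 216 CPM in shRB (−0.23 ± 0.08). Neither gene's interval left out the common shift, and both were called lower with no overlap of groups. The call was lost without any 1 of the shCON libraries in both genes, without shRB 3 in U2AF1 and without shRB 1 in SON. The members PWP2 and WDR4, already described, are in the same list, so it held log2 fold changes from −1.61 (RBM11) to 0.20 (PWP2).

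Of 9 genes of the ubiquitin, chaperone and protein turnover list, 4 were called lower, 0 higher and 5 did not pass (median −0.34). CCT8 (ENST00000286788), a subunit of the chaperonin that folds actin and tubulin, had 520.2, 495 and 492 CPM in shCON and 458, 430.1 and 456 CPM in shRB. Its groups were apart, but its log2 fold change of −0.17 ± 0.07 did not pass the test and lay above the common shift. TTC3 (ENST00000399017), a ubiquitin ligase, had 357, 312 and 345 CPM in shCON and 209, 174 and 242 CPM in shRB. TTC3 lay below the shift at −0.70 ± 0.10, with shRB 2 the lowest library.

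Of 16 metabolic and redox enzymes and transporters, 10 were called lower, 0 higher and 6 did not pass (median −0.30). The calls of CBS, PDXK and AGPAT3 were lost without shCON 2, shCON 3, shRB 1 or shRB 3. SOD1 (ENST00000270142), the cytosolic superoxide dismutase, had 493, 496 and 491 CPM in shCON and 389.8, 407 and 345 CPM in shRB. The shCON libraries of SOD1 were within a few CPM of each other and above every shRB library, and its log2 fold change of −0.37 ± 0.08 was close to the common shift. CBS (ENST00000398165), the cystathionine synthase of sulfur amino acid metabolism, had 333, 376 and 352 CPM in shCON and 268, 318 and 285 CPM in shRB (−0.28 ± 0.08). The counts of CBSL, a near-identical copy, differed from those of CBS by at most 0.186% in any library, and those of MIR6501, which lies within SON, by at most 0.488% from those of SON, so these rows do not give separate measurements. Without CBSL and MIR6501 the median over 107 members was −0.38. GART, an enzyme of purine synthesis chosen after its values were seen, lay above the shift at −0.11 ± 0.08.

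Of 6 kinases and signalling regulators, 5 were called lower, 0 higher and 1 did not pass (median −0.47). PTTG1IP (ENST00000330938), which binds the securin PTTG1, had 319, 334 and 323 CPM in shCON and 244, 266 and 242 CPM in shRB (−0.38 ± 0.07, called lower). TRPM2 (ENST00000300482), a calcium-permeable channel opened by oxidative stress, had 95.1, 97.9 and 91.4 CPM in shCON and 79.8, 94.1 and 76.0 CPM in shRB. The library shRB 2 of TRPM2 lay within the control range, and its log2 fold change of −0.19 ± 0.09 did not pass. DYRK1A, a kinase studied for its dosage in Down syndrome and chosen after its values were seen, was at −0.50 ± 0.08 and called lower.

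Of 9 genes of membrane traffic and amyloid processing, 5 were called lower, 0 higher and 4 did not pass (median −0.43). APP (ENST00000357903), the amyloid precursor protein gene, had 584, 558 and 549 CPM in shCON and 531, 498 and 528 CPM in shRB. Every shRB library of APP was below every shCON library, but the difference was small beside the common shift, at −0.12 ± 0.07, did not pass the test, and lay above the shift. TMEM50B (ENST00000420455), a membrane protein of the endoplasmic reticulum and Golgi, had 136, 126 and 129.9 CPM in shCON and 80.7, 73.7 and 80.3 CPM in shRB. TMEM50B was below the shift at −0.74 ± 0.08 and was called lower.

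All 5 tested genes of the adhesion, junction and secreted protein list were called lower (median −0.54), among them TFF3 and ADAMTS1. Among all members 62.4% were called lower, and among all genes tested 12.5%. The call of CLDN8, a claudin of tight junctions, was lost in DESeq2 and without shCON 1, shCON 3 or shRB 1, and that of NCAM2 without shCON 1 or shCON 3. NCAM2 (ENST00000284894), a neural adhesion molecule, had 332, 289.7 and 309 CPM in shCON and 264, 193 and 258 CPM in shRB, a log2 fold change of −0.38 ± 0.11 that was the median of all members. Of 6 genes of the centrosome, replication and cilia list, 4 were called lower, 0 higher and 2 did not pass (median −0.34). MCM3AP (ENST00000397708), which takes part in mRNA export, had 106, 106 and 99.6 CPM in shCON and 75.4, 94.8 and 84.8 CPM in shRB (−0.29 ± 0.09). CFAP298 (ENST00000290155), needed for motile cilia, had 73.3, 63.9 and 65.6 CPM in shCON and 55.8, 44.6 and 48.3 CPM in shRB (−0.45 ± 0.10). Both were called lower with the groups apart, but the call of MCM3AP was lost without shCON 1, shCON 2, shCON 3, shRB 1 or shRB 3, and the exons of MCM3AP overlap those of MCM3AP-AS1 on the opposite strand. DONSON, a replication fork protein chosen after its values were seen, lay above the shift at 0.03 ± 0.16. The other 28 members, in no list, had a median of −0.40, with 16 called lower and 0 higher.

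The 15 other fits and left-out libraries tried reuse the same counts, and no matching share is given for genes of other chromosomes. Nothing is therefore read from the count that follows. Across them, 23 of the 35 members off the shift stayed off it on the same side in every one, 9 above and 14 below. Of the 12 genes that the naming rule took as farthest from the shift, WDR4 was the exception, and its interval held the shift without shCON 1. DONSON no longer left the shift without shCON 3, shRB 1 or shRB 3, and IFNGR2 no longer did in DESeq2 or without shCON 1, shCON 2, shCON 3 or shRB 3. In the lists above, the calls of lower for URB1, YBEY, PSMG1, ITSN1, HSF2BP and PCNT were also each lost in some of these fits.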

How the data were processed

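The deposited table holds unnormalized read counts made by the authors, with transcript IDs in rows and libraries in columns, per the file headers. The submitters' processing notes list STAR, HOMER, edgeR and hg19 but assign them no step. How reads were assigned, and whether by strand, is not given in the sources used here. IDs were matched to GENCODE release 29 (22182 of 22279; the rest held 0.377% of counts and stayed in library totals), a different build, used for names, chromosome and gene order. The members and lists were chosen with earlier results of these data known. All genes were fitted together in edgeR 4.0.16 (R 4.3.3) with filterByExpr (minimum count 10, minimum total 15), TMM and the quasi-likelihood F test of group. P-values were adjusted by Benjamini-Hochberg (threshold 0.05). The standard error is the log2 fold change over the square root of F, and 95% intervals use the t quantile of the fit. CPM uses the TMM-scaled total. In chi-square tests between replicates of a group the statistic was 2.25 to 11.3 per degree of freedom, so none was a duplicate. The pairs with shRB 2 gave 11.2 and 11.3, against 2.30 for shRB 1 with shRB 3 and at most 6.05 in shCON. Named genes were, among members off the shift with at least 5 CPM and no overlap after centring, the 6 highest and 6 lowest, leaving out symbols with a hyphen or beginning AP0, LINC or CH507, plus the 2 of highest CPM in each of 9 role lists and the 4 of highest CPM overall. The procedure was also run on simulated counts. There, only members with many counts were moved off the shift, by more than most departures described here. The simulation held no effect of GC content, so it does not test the departures named here. Alternatives were DESeq2 1.42.0, limma-voom (limma 3.58.1), other scalings and filters, a replicate block, each library left out, and other member sets.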

Additional observations from a re-analysis of the deposited data

How the results depend on the processing

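The common shift stayed between −0.40 and −0.38 in every alternative run. It was −0.39 by limma-voom, −0.40 with upper quartile factors and −0.40 with library totals only, and −0.38 with TMM factors computed without chromosome 21. With 1 library left out it ran from −0.39 to −0.38, and the number of members called lower from 45 (without shCON 3) to 74 (without shRB 2), the number above the shift from 12 to 25 and the number below it from 14 to 19. At an adjusted p under 0.01, 40 members were lower, and with 99% intervals 9 lay above the shift. The main fit did not pair the samples by replicate number. The deviations of same-numbered libraries correlated at 0.25, 0.36 and 0.0005, and the 0.36 of replicate 2 was the highest of all pairs. Libraries with different numbers ran from −0.38 (shCON 1 with shRB 2) to 0.28 (shCON 1 with shRB 3). These values do not settle whether the replicates were paired. With the replicate number as a block, 83 members were lower and 1 (PWP2) higher, 23 lay above the shift and 21 below. Members called higher numbered 0 in all other settings (edgeR, DESeq2 and limma-voom). Depth limits the members with few counts: 9 of 109 had a mean under 5 CPM.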

Other observations

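Several well-known genes of chromosome 21 had too few counts to be members. The ETS factor ERG, the neural adhesion gene DSCAM, the glial factor OLIG2, the immune regulator AIRE and the claudin gene CLDN14 were at 0 in every library. RUNX1, a blood transcription factor, had 6 counts in all of shCON and 2 in all of shRB under 1 of its IDs and 0 under the other. The adhesion gene IGSF5 had 26 counts over shCON (16, 7 and 3) and 1 over shRB, and the trefoil genes TFF1 and TFF2 had 4 and 3 counts over shCON and 0 over shRB. Of 33 IDs of the hair keratin-associated family (KRTAP), 32 were at 0 in every library. The 153 chromosome 21 IDs under the count of 60 held 328 counts over shCON and 155 over shRB, and no test was made on them. All counts in this paragraph are raw and not scaled for depth. Total counts per library were 6115310 to 20091488 in shCON and 9780579 to 10898768 in shRB.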
